A study of Rattus norvegicus with 24 samples.

Results

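The kidney methylome of Brown Norway (BN) rats was compared between non-pregnant females (BN-NP) and females on day 18 of pregnancy (BN-P18). The cytosines compared were the CpGs, each on its own strand, that had at least 10 reads in all 6 BN libraries. This held for 898904 CpGs, out of 2130313 with 10 reads in any BN library and 2227168 with 10 reads in any of the study's 12 methylation libraries. The study paired BN rats, an inbred strain used as a model of pregnancy with placental insufficiency, with outbred Sprague Dawley (CD) rats, with 3 rats in each group. Each rat gave 1 kidney section, 1 RNA library and 1 methylation library. All BN animals were females of 2 months, and the labels name no difference between the groups other than pregnancy. The rats of each group were separate animals, and the labels name no litter, batch or day.

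In vertebrate DNA, methylation is placed mainly on the cytosine of a CG pair, called a CpG. Most CpGs in a tissue are methylated in nearly all cells, whereas dense groups of CpGs, often at gene starts, stay unmethylated, and the inactive X chromosome of females carries methylation at such dense groups too. In reduced representation bisulfite sequencing (RRBS), DNA is cut at CCGG sites, so that CpG-rich fragments are read preferentially, and bisulfite turns unmethylated cytosines into bases read as T. The share of reads that still show C is the methylation level of a CpG, and over a tissue section it is an average across all its cell types, so that a change within a cell type and a change in the mix of cells cannot be told apart.

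The libraries held 37343198 to 44738436 CpG reads in BN-NP rats and 29462833 to 31712880 in BN-P18 rats, so every BN-P18 library was shallower than every BN-NP library. At the shared CpGs the median coverage was 23 to 25 reads in BN-NP rats and 20 to 21 in BN-P18 rats. Cytosines of the mitochondrial genome, which is read here as a background for unconverted cytosines, were called methylated in 0.363 to 0.504% of reads. No gene annotation of the Rnor_6.0 build was used here, so positions are given without genes.

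Averaged over the 898904 shared CpGs, the kidney methylome did not differ detectably between pregnant and non-pregnant BN rats. The mean level was 48.93%, 48.88% and 48.97% in the 3 BN-NP rats and 49.11%, 48.90% and 48.89% in the 3 BN-P18 rats. The groups overlapped, with the highest value in a pregnant rat and the other pregnant rats between the BN-NP rats. The difference was 0.0392 points (48.9% ± 0.0446 in BN-NP and 49.0% ± 0.127 in BN-P18, SD, n = 3 each, exact two-sided permutation test, p = 0.8). With 3 rats against 3 this test cannot go below 0.1.

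The same 6 rats gave a different picture when each was averaged over its own list of CpGs with 10 reads. On these lists the mean level was 44.4%, 43.0% and 39.1% in BN-NP and 48.2%, 49.2% and 47.2% in BN-P18. All pregnant rats then lay above all non-pregnant rats, by 6.05 points on average. The lists, however, did not hold the same CpGs. In BN-NP rats, 45.9 to 48.4% of the CpGs listed were not shared by the 6 rats, and their mean level was 39.4%, 36.0% and 28.5%. In BN-P18 rats, 30.1 to 35.5% of the listed CpGs were not shared, with mean levels of 46.3%, 49.9% and 44.2%.

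The CpGs that dropped below 10 reads in the pregnant rats had a lower methylation on average. Among the CpGs read in all 3 BN-NP rats, the 128789 that reached 10 reads in no BN-P18 rat had a mean level of 24.9% in the BN-NP rats. Those reached in 1 BN-P18 rat averaged 29.7%, those reached in 2 averaged 35.4%, and those reached in all 3 averaged 48.9%. In the opposite direction the order turned: CpGs read in all 3 BN-P18 rats but in no BN-NP rat numbered 5171 and averaged 59.8%. A gain of 6.05 points thus appeared between lists of different CpGs, while the difference over the same CpGs was 0.0392 points. When the shared CpGs were weighted by their reads, the difference was 1.41 points (exact two-sided permutation test over the 6 rats, p = 0.2).

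**Figure D1:**
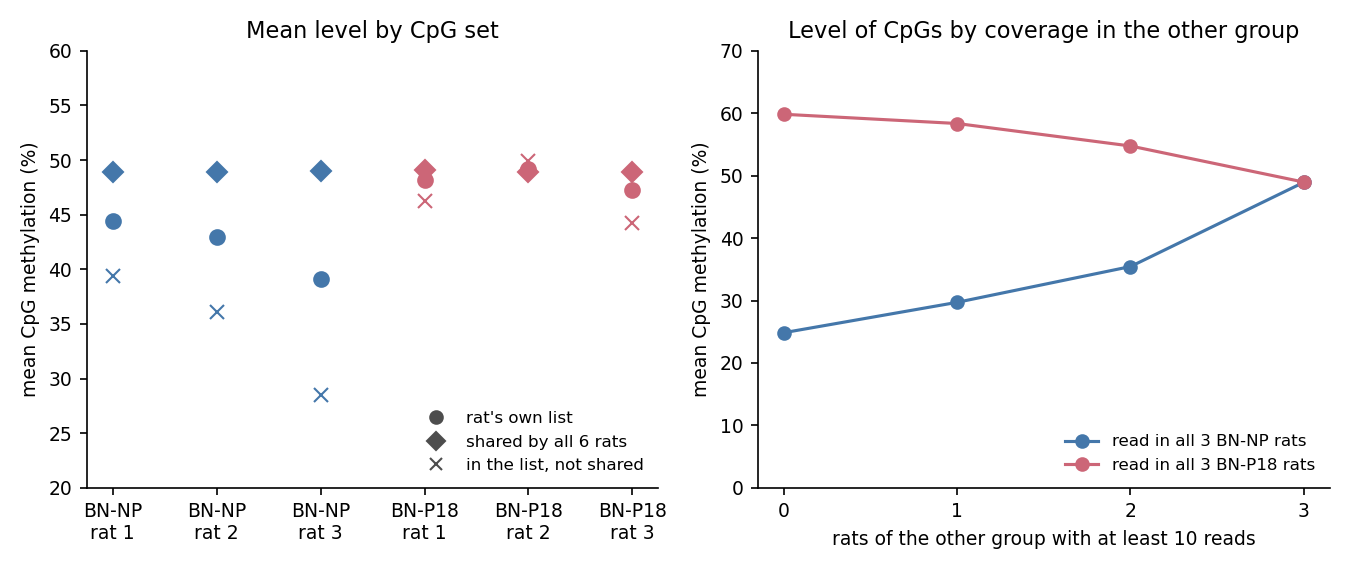
The left panel plots, for each of the 6 BN rats, the mean CpG methylation in percent over the rat's own list of CpGs with 10 reads (circles), over the 898904 CpGs shared by the 6 rats (diamonds) and over the listed CpGs that were not shared (crosses). The right panel plots the mean level of CpGs read in all 3 rats of a group against the number of rats of the other group that reached 10 reads there: the diamonds are level at 48.9 to 49.1%, while the CpGs missing from pregnant rats fall to 24.9%.

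By class of level, 319967 shared CpGs (35.6%) had a mean under 10%, 358958 (39.9%) lay between 10 and 90%, and 219979 (24.5%) were over 90%. The difference between BN-P18 and BN-NP was 0.0111 points in the low class, 0.0569 in the middle class and 0.0513 in the high class, and the groups overlapped in each. In steps of 10 percentage points of level, the differences ran from -0.0407 points at CpGs of 80 to 90% to 0.283 points at CpGs of 20 to 30%, again with overlapping groups throughout. Of the 20 autosomes, 17 had a higher mean at P18 and 3 a lower one, with differences from -0.0330 to 0.129 points. The groups did not overlap on 2 of these autosomes, 7 and 14. On each the exact permutation test gave p = 0.1, the lowest it allows. For comparison, the groups did not overlap at 9.54% of the CpGs at 10 to 90%. All autosomes were read from the same 6 libraries, so the 17 are not independent of each other.

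The level of a CpG followed the number of CpGs around it, in pregnant and non-pregnant rats alike. On the autosomes the BN-NP mean was 75.7% at CpGs with no other shared CpG within 100 bases, 66.3% with 1 to 4, 31.0% with 5 to 9, and 3.84% with 10 or more. At P18 the corresponding means were 75.7%, 66.3%, 31.1% and 3.88%. The largest of the 4 autosomal differences was 0.0427 points, and the groups overlapped in each class.

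Chromosome X, of which females silence 1 copy in each cell, stood apart from the autosomes at dense CpGs. With 10 or more other CpGs within 100 bases, the mean over 2166 X-linked CpGs was 29.3%, 29.4% and 31.9% in the BN-NP rats and 31.4%, 31.9% and 29.4% in the BN-P18 rats. The autosomal counterpart was 3.79 to 3.91% over 146042 CpGs. Between 54.1 and 62.1% of the dense X-linked CpGs in a rat lay at 25 to 75% methylation, against 1.80 to 1.99% of the dense autosomal ones. The X-linked levels differed more between rats than between stages: the BN-P18 mean was 0.753 points higher than the BN-NP mean, with SDs of 1.45 points in BN-NP and 1.33 in BN-P18 (n = 3 each, exact permutation test, p = 0.5). Over all 16895 X-linked CpGs the means were 61.5% ± 0.221 and 61.7% ± 0.510 (SD, n = 3 each), and the groups overlapped.

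**Figure D2:**
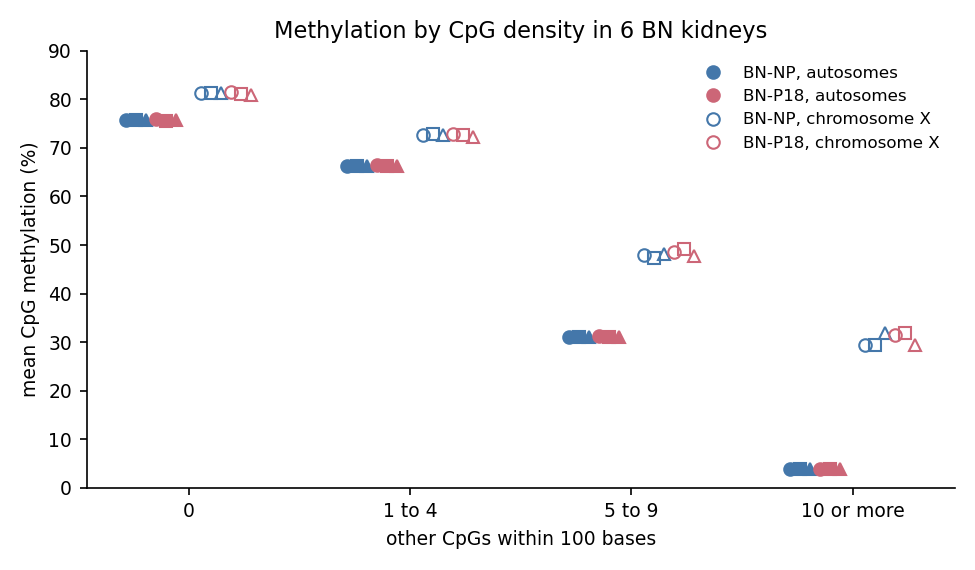
Mean CpG methylation in percent is plotted against the number of other shared CpGs within 100 bases, for autosomes (filled symbols) and chromosome X (open symbols), with 1 symbol per rat (circle, square and triangle for rats 1, 2 and 3) and BN-NP in blue and BN-P18 in red. The 2 stages overlap in each class, while dense CpGs lie at 3.79 to 3.91% on autosomes and at 29.3 to 31.9% on chromosome X.

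Nearly all of the spread between inbred rats at single CpGs was of the size that counting reads gives. The SD between rats of the same group was 6.38 points in BN-NP, of which counting alone gives 6.30 points. In BN-P18 it was 6.76 points, with 6.66 from counting. Counting thus made up 97.4% and 97.2% of the variance, and the remainder corresponded to an SD of 1.03 and 1.13 points. On chromosome X the remainder was larger, at 2.24 and 2.46 points. The difference between the group means had a root mean square of 5.36 points over CpGs, of which counting gives 5.29. After counting and the spread between rats were subtracted, the mean square left over for pregnancy was -0.103 square points, that is, not above 0.

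Pairs of rats of different stages were no farther apart than pairs of the same stage. The root mean square difference over the shared CpGs was 8.85 to 9.60 points in the 6 pairs of rats within a group and 9.11 to 9.53 points in the 9 pairs between groups. With the counting part removed, the ranges were 1.28 to 1.68 and 1.35 to 1.68 points. A one-sided exact permutation test of between-group against within-group distances gave p = 0.9, where 0.1 is the smallest value possible. The mean square it tests, -0.103 square points, is the value left over for pregnancy above, so this is not a separate result.

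The CD rats, which are outbred and can carry different alleles, were set beside the BN rats on the same 404069 CpGs covered in all 12 libraries. BN and CD differ in strain as well as in breeding, so the part of the inbred background cannot be told apart. In BN-NP, 114 CpGs (0.0282%) had levels that ranged over more than 50 points among the 3 rats, and in BN-P18 there were 429 (0.106%). In CD-NP there were 1412 (0.349%) and in CD-P18 845 (0.209%). These ranges include counting error, whose SD was 5.61 points in BN-NP, 6.38 in BN-P18, 6.71 in CD-NP and 5.66 in CD-P18. Ranges of over 80 points were found at 0 and 2 CpGs in the BN groups and at 177 and 198 in the CD groups. The spread beyond counting was 1.08 and 1.15 points in BN and 2.52 and 2.40 points in CD. Median coverage was 28 and 21 reads in the BN groups and 19 and 28 in the CD groups, so the BN-NP and CD-P18 groups had the same median depth.

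At a small number of places the inbred rats did differ from each other far beyond counting. Each of the 317839 CpGs at 10 to 90% in both groups was tested for differences among rats of the same group, with a chi-square test on the reads that allows for counting error only. After Benjamini-Hochberg adjustment, 303 CpGs (0.0953%) had an adjusted p under 0.05. They fell into 48 places when CpGs under 10 kb apart were joined, and 88.0% of their positions had another such position within 500 bases. Chromosome X, with 3.44% of the CpGs tested, held 1 of the 303 CpGs (0.330%) and so 1 of the 48 places. These places were chosen after their values were seen.

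The place with the most such CpGs was chr1:11904929-11912274, where 155 of 238 shared CpGs passed. Its summed level was 18.4%, 13.6% and 22.6% in BN-NP rats and 17.05%, 4.24% and 35.1% in BN-P18 rats. The lowest and the highest rat were thus both pregnant, and the group means differed by 0.579 points. At chr14:46633179-46633436 the values were nearly the same rat by rat, with 17.7%, 13.0% and 20.6% in BN-NP and 16.7%, 3.53% and 33.5% in BN-P18. Of the 12 places with 4 or more such CpGs, 8 put the 6 rats in exactly this order, from BN-P18 rat 2 at the bottom to BN-P18 rat 3 at the top, and these 8 held 210 of the 303 CpGs.

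Coverage was far above the median at most of the 303 CpGs. The mean was 1088 reads per rat and CpG at the chromosome 1 place and 2354 at the chromosome 14 place, against a median of 22.2 over all shared CpGs. Of the 303 CpGs, 188 had more than 500 reads per rat, a depth that 350 of all shared CpGs reached. Whether reads from several copies of a sequence were placed together there was not tested. The 32 places with a single such CpG were mostly read at ordinary depth, and 50 of the 303 CpGs had fewer than 100 reads per rat. A higher depth also makes a given difference easier to detect.

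Another order of rats was seen on chromosome 6, at lower depth. At chr6:31049806-31049865, 14 of 15 shared CpGs passed, with a mean of 229 reads per rat. The level was 39.7%, 11.9% and 65.0% in BN-NP rats and 19.1%, 28.5% and 46.1% in BN-P18 rats, a range of 53.0 points among inbred animals. The place at chr6:30631494-30631564 ranked the rats in the same order, from 9.43% in BN-NP rat 2 to 39.3% in BN-NP rat 3. Among the 12 places, the largest difference between group means was 7.65 points. As the places were picked for a wide spread within groups, this is no test of the stages.

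**Figure D3:**
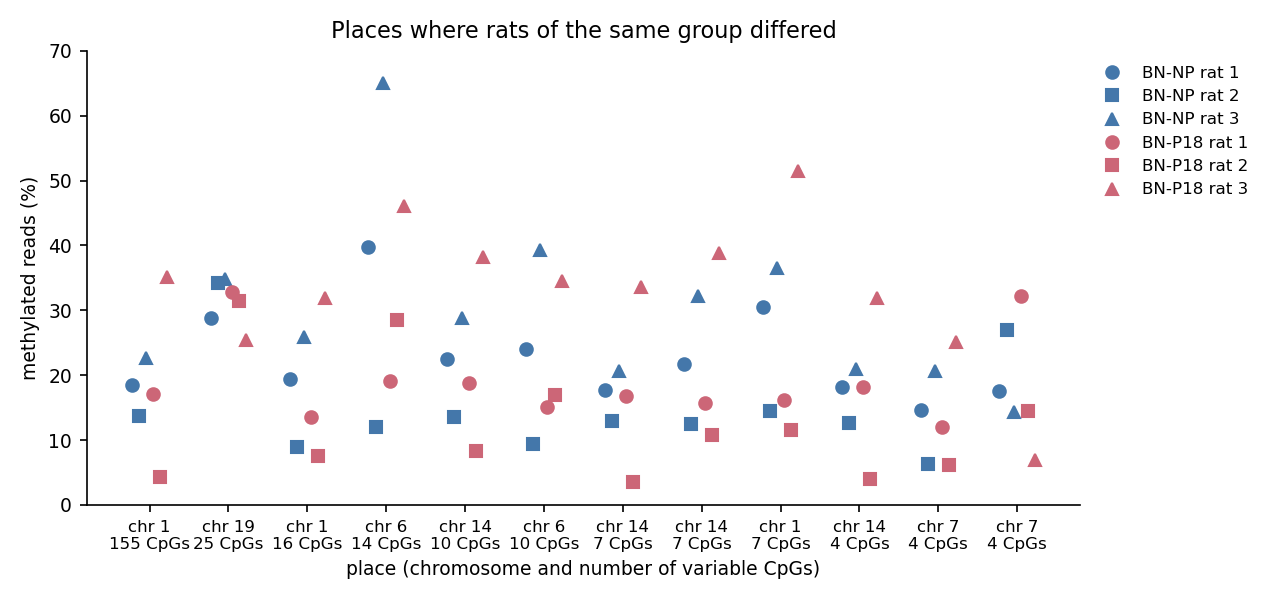
The share of methylated reads in percent is plotted for each BN rat (BN-NP blue, BN-P18 red; circle, square and triangle for rats 1, 2 and 3) at the 12 places with 4 or more CpGs at which rats of the same group differed beyond counting. The first place, on chromosome 1 with 155 CpGs, runs from 4.24% to 35.1%, both in pregnant rats.

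Single CpGs were then compared between stages. For each of the 898904 CpGs, the numbers of reads with C and with T went into a logistic model, whose F test used a dispersion moderated across CpGs with limma. A differentially methylated CpG (DMC) needed an adjusted p (Benjamini-Hochberg) under 0.05 and had to differ by over 10 points when the reads of a group were pooled. A single CpG (0.000111%) passed, and it was lower at P18. Without adjustment, 33552 CpGs (3.73%) had a p under 0.05, 17413 of them higher and 16139 lower at P18. These shares depend on the dispersion: 5.14% of CpGs had such a p with the dispersion of each CpG on its own, and 5.66% with limma on log-odds.

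The DMC was the cytosine at position 16400198 of chromosome 1, on the minus strand. It was methylated in 52.9%, 48.7% and 69.0% of reads in BN-NP rats and in 27.3%, 22.7% and 23.4% in BN-P18 rats, with 66 to 129 reads per rat. The groups were separated by a gap of 21.4 points. Pooled reads differed by -34.2 points (SE 4.92, adjusted p = 7.99e-05, logistic model moderated with limma). Its nearest covered CpG, 9 bases away on the same strand, differed by -1.08 points, from 94.6% to 93.5%. The 5 shared CpGs within 500 bases had a median difference of -3.56 points, and its other strand was not covered.

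This call rested on 1 library and on the shared dispersion. Without BN-NP rat 3, the rat at 69.0%, the difference was -26.7 points and the adjusted p from the same logistic model was 0.595. The dispersion of this CpG on its own was 2.67, against 1.45 in the model. When each CpG was given its own dispersion the adjusted p of the F test was 0.862, and limma on log-odds gave 0.826. In CD rats the same cytosine was methylated in 51.02%, 55.2% and 33.9% of reads at NP and in 58.8%, 25.3% and 37.6% at P18, with overlapping groups.

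The other 9 of the 10 CpGs with the smallest p did not pass, and their adjusted p ran from 0.352 to 0.727. Of all 10, 6 were higher and 4 lower at P18, and 9 had groups that did not overlap. Such separation was common: it held for 9.54% of the 358958 CpGs at 10 to 90%, with 17487 higher and 16749 lower at P18. As these CpGs were picked for a small p, their separation is not a result.

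The second by p, at position 106377473 of chromosome 9 on the minus strand, had CpGs around it that differed in the same direction. Its levels were 94.4%, 88.5% and 88% in BN-NP rats and 40%, 84.2% and 58.3% in BN-P18 rats, a pooled difference of -33.3 points (SE 6.71) on 19 to 36 reads. The nearest CpG, 12 bases away, differed by -16.4 points, and the median of the 13 shared CpGs within 500 bases was -12.8 points. Reads that cover neighbouring CpGs can be the same molecules, so these values are not independent. BN-P18 rat 2 lay close to the BN-NP rats, and without it the logistic model with limma gave an adjusted p of 0.0150 and a difference of -42.7 points. Without BN-P18 rat 1, the rat at 40%, the difference was -21.0 points and the adjusted p from that model was 1.

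The third, at position 22303139 of chromosome X on the minus strand, was unmethylated in each BN-NP rat, with 0 of 19, 0 of 28 and 0 of 46 reads. Counts of 0 of this size allow levels of up to 15.8%, 10.7% and 6.52%, for counting error only. In BN-P18 rats the level was 11.8%, 41.2% and 16.7% on 12 to 17 reads, and the first of these was under the limit for BN-NP rat 1 only. Without BN-P18 rat 2, the rat at 41.2%, the pooled difference fell from 23.9 to 13.8 points. The nearest CpG rose from 0% to 6.67%, and the median of the 24 shared CpGs within 500 bases was 5.13 points.

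The CpG at position 1626472 of chromosome 7, on the plus strand, was read more deeply, at 68 to 180 reads. Its levels were 34.8%, 38.3% and 24.4% in BN-NP rats and 50.7%, 60.5% and 55.9% in BN-P18 rats, a difference of 25.1 points (SE 5.16). The nearest CpG differed by 2.5 points. Over the alternative fits of the logistic model moderated with limma, its adjusted p was 0.0457 with at least 20 reads per rat and 0.0411 without the CpGs of highest coverage. It was 0.000162 with no overdispersion in the logistic model, and it missed the threshold in the other alternatives run.

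The CpG at position 12056186 of chromosome 7, on the minus strand, showed the widest gap between groups among the 10, at 30.5 points. The levels were 90.9%, 90.5% and 100% in BN-NP rats and 50%, 52.4% and 60% in BN-P18 rats, but on 14 to 22 reads. Its nearest CpG, 6 bases away, differed by -17.2 points, and the median of the 9 within 500 bases was -3.68 points. The CpG at position 177546739 of chromosome 2, on the plus strand, was higher at P18, with 55.6%, 64% and 26.7% in BN-NP rats and 89.3%, 87.1% and 84.6% in BN-P18 rats. Both of its 2 shared neighbours within 500 bases were also higher, by 12.9 and 16.9 points.

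At position 127048373 of chromosome 5, on the minus strand, the levels were 83.3%, 75% and 84.2% in BN-NP rats and 100% in each BN-P18 rat. At position 35742398 of chromosome 1, on the minus strand, they were 14.3%, 8.82% and 10% against 51.9%, 45% and 30%. The nearest CpGs of these differed by -1.37 and 0.904 points. At position 24101723 of chromosome 7, on the minus strand, levels were 41.7%, 69.6% and 60.5% in BN-NP rats and 100%, 86.4% and 91.3% in BN-P18 rats. It was the only CpG of the 10 whose other strand was covered, and there the difference was 10.2 points, while its nearest CpG on the same strand differed by 6.33 points.

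The CpG at position 38091896 of chromosome 10, on the plus strand, shows a case in which rats rather than stages differed. Its levels were 76.7%, 90.6% and 23.5% in BN-NP rats and 41.4%, 0% and 76.7% in BN-P18 rats. The groups overlapped almost completely, although the pooled difference was -35.2 points (SE 7.19) on 17 to 39 reads. The dispersion of this CpG on its own was 17.2, against 1.04 used by the model. It was among the 303 CpGs at which rats of the same group differed beyond counting. It became a call when BN-NP rat 3 or BN-P18 rat 3 was left out, with adjusted p of 0.00173 and 7.89e-05 in the logistic model with limma and differences of -48.2 and -53.2 points. Without BN-P18 rat 2 the difference was -11.6 points and without BN-NP rat 2 it was -21.7 points, each with an adjusted p of 1 in that model.

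**Figure D4:**
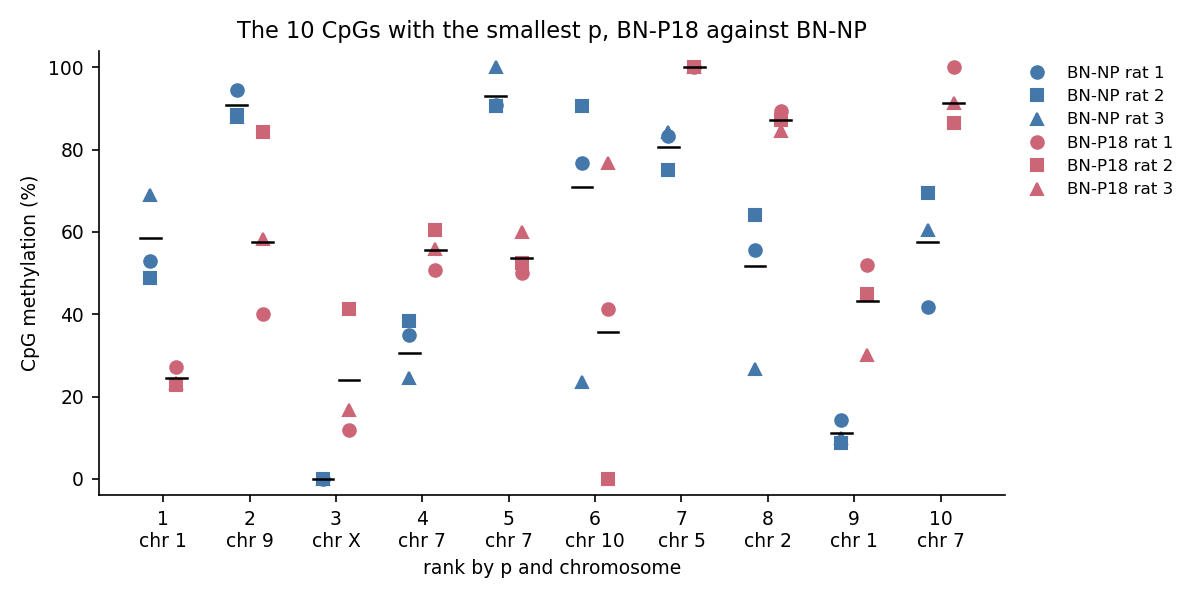
CpG methylation in percent is plotted for the 10 CpGs with the smallest p, ordered by p, with BN-NP rats in blue on the left and BN-P18 rats in red on the right of each position and a black line at the level of the pooled reads. The groups are apart at 9 of the 10, and at the CpG on chromosome 10 both groups spread from under 24% to over 76%.

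The 2 strands of a CpG are read from different molecules of the same rats. Both strands were covered at 59153 CpGs. The levels of the strands were alike (r = 0.995 across CpGs), whereas their differences between stages had r = 0.0246. Counting gave 97.6% of the variance of the differences over all shared CpGs, which holds this r near 0 even if the rest was shared. The part common to both strands had a root mean square of 0.814 points. Beyond counting, the differences over all shared CpGs had 0.822 points. The CpGs compared share rats, libraries and base composition, and CpGs are not replicates. Where the plus strand differed by more than 20 points (297 CpGs, mean 23.1 points), the other strand differed in the same direction at 155 and by a mean of 0.720 points. At 37 of the 297 (12.5%) the other strand differed by more than 10 points in that direction. CpGs picked for a large difference on 1 strand carry counting error in it, so these values cannot tell whether a given difference recurs.

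Reads were next summed over windows of 1000 bases with at least 3 shared CpGs, to look for smaller changes spread over neighbouring CpGs. The 109361 windows held a median of 5 CpGs and 117 reads per rat. None passed (0%) in the logistic model moderated with limma, and the smallest adjusted p was 0.668. Without adjustment, 4087 windows (3.74%) had a p under 0.05, 2157 of them higher and 1930 lower at P18. With no allowance for differences between rats, 320 of the 109361 windows would have passed, 178 higher and 142 lower.

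The 5 windows with the smallest p were all higher at P18, and in none did the groups overlap, which was so for 10.5% of the windows at 10 to 90%. The first was chr7:22452001-22453000, where 11 of 13 CpGs were higher at P18. Its levels were 34.6%, 40.7% and 28.0% in BN-NP rats and 56.4%, 50.5% and 48.9% in BN-P18 rats, a difference of 18.4 points (SE 3.39). The window chr4:100373001-100374000 varied least between rats, with 33.5%, 28.2% and 31.5% in BN-NP rats and 45.8%, 44.9% and 46.6% in BN-P18 rats. There the difference was 14.6 points (SE 2.91), and 12 of 15 CpGs were higher.

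The other 3 windows held 6 CpGs each. At chr1:256370001-256371000 the levels were 64.8%, 70% and 75.9% in BN-NP rats and 87.5%, 85.8% and 89.4% in BN-P18 rats, and all 6 CpGs were higher. At chrX:122724001-122725000 they were 19.2%, 27.1% and 28.3% against 48.7%, 37.8% and 47.0%, again with all 6 CpGs higher. At chr10:30812001-30813000 they were 30.9%, 26.2% and 35.7% against 46.3%, 57.9% and 51.5%, with 5 of 6 CpGs higher. None of these 5 windows passed the adjusted threshold. They were picked for a small p, so their separation and their counts of higher CpGs are not a result. Of the 11 windows with an unadjusted p under 1e-04 in the logistic model, 7 were higher and 4 lower at P18.

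How small a change could be seen depended on depth and on how many CpGs passed the threshold. For a single changed CpG among the 898904, the unadjusted p has to reach 5.56e-08. At the coverage, level and dispersion of these CpGs that takes a median difference of 38.5 points (27.5 to 51.5 from the 10th to the 90th percentile). Either a rise or a fall from the BN-NP level was taken at each CpG, whichever needed less. A change the other way needs at least as much. The median was 34 points at CpGs under 10%, 43.5 points at 10 to 90% and 39 points over 90%. At CpGs up to the 25th percentile of coverage it was 47 points, and at those from the 75th percentile upwards 31.5 points. If 1 CpG in 100 had passed, the threshold would ease to 0.0005 and the median needed to 20 points (13 to 29). As not every changed CpG passes, more than 1 in 100 would have to change for this.

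Windows were more sensitive. A single changed window needed a median of 20.5 points (10 to 31), where 10 points is the minimum set for a call. In windows from the 75th percentile of coverage upwards the median was 11 points, and if 1 window in 100 had passed it was 10.5 points over all windows. These values are the differences that would just reach the threshold if read without error, in the direction that needed less. A true difference of that size would pass in only part of repeated experiments.

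The differences actually found can be set beside these limits. The median standard error of a CpG's difference was 4.51 points, which gives a 95% interval of 8.84 points to either side, or 14.3 points at CpGs of 10 to 90%. CpGs under 10%, with a median standard error of 1.22 points, lower the median over all CpGs. For CpGs the interval rests on the dispersion shared at each coverage, so it is too narrow where rats of a group differ more. At position 38091896 of chromosome 10 the SE was 7.19 points, although the SD between rats was 35.4 points in BN-NP and 38.4 in BN-P18. For windows the interval was 6.07 points to either side. The largest rise at any CpG was 38.8 points and the largest fall 41.2 points. Differences over 25 points were found at 832 CpGs (0.0926%), and differences over 10 points at 66646 of the 898904 CpGs. A lone CpG that changed by 20 points would therefore not have been detected at most positions at this depth, and the absence of such changes was not shown.

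**Figure D5:**
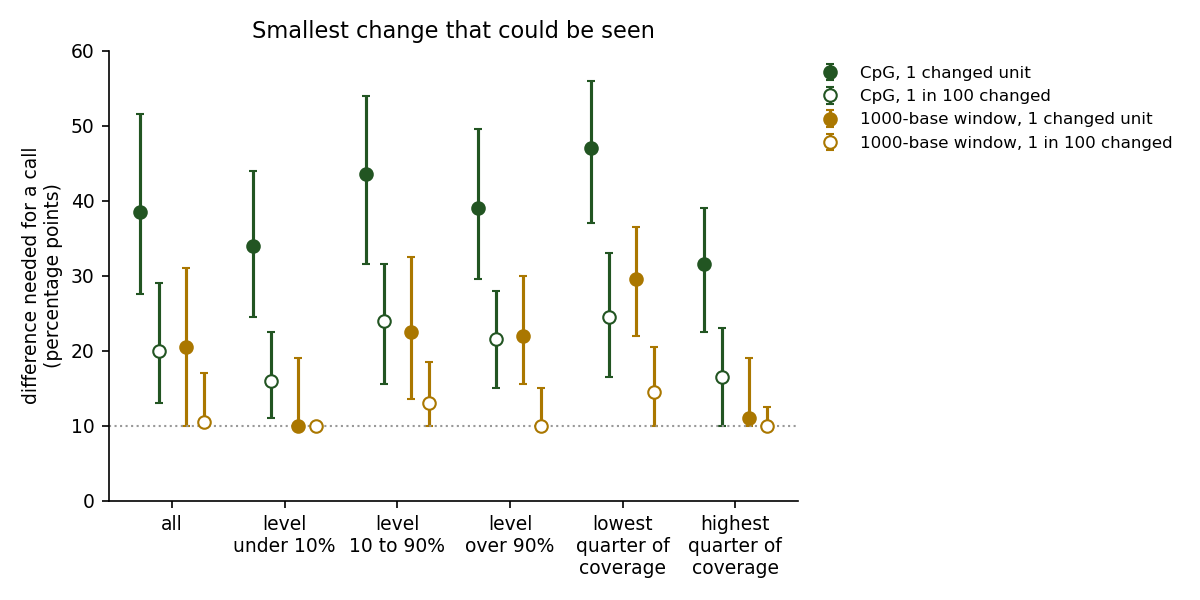
The difference between stages, in percentage points, that just reaches the threshold for a call is plotted for CpGs (green) and windows of 1000 bases (ochre), as the median with bars from the 10th to the 90th percentile, over all units and by level and coverage. For each unit the direction that needs less is used. Filled symbols assume that 1 unit passes and open symbols that 1 in 100 pass (labelled as changed). The dotted line marks the minimum of 10 points set for a call, and the median over all CpGs falls from 38.5 to 20 points between these cases.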

How the data were processed

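DNA of a kidney section of each of 12 female rats was digested at CCGG sites and bisulfite-sequenced. According to the methods and the submitters' processing notes, the authors used Trim Galore 0.4.5 and NuGEN scripts for trimming and for removing duplicates by N6 tags, Bismark for alignment to Rnor_6.0, and methylKit 1.16.1. The deposited lists hold, for each CpG and strand, a read count (coverage) and the percent of these reads with C and with T. The lowest deposited coverage was 5 reads. Methylated reads were recovered as coverage times percent, which gave whole numbers within 0.0051 points on 100% of lines. A base variant that reads as T counts as unmethylated in these values. The depth and the dispersion of the model set the precision. The standard errors and intervals of the differences, and the differences needed for a call, include this dispersion. The limits given for rats without methylated reads at a CpG cover counting error only.

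Rats were grouped by their labels. CpGs with at least 10 reads in the 6 BN libraries were kept, and the CD libraries served only for comparison. Groups were compared with a logistic model of the reads per CpG or window in R 4.3.3. Its Pearson dispersion was moderated by squeezeVar of limma 3.58.1, as a trend on coverage with its prior from units at 10 to 90%, and never fell under 1. For CpGs this gave in effect 1 shared dispersion at each coverage. CpGs outside 10 to 90% took whichever was larger, the prior or their own value. Adjustment was by Benjamini-Hochberg over all units tested. The fit was tested on simulated reads. Mean levels were compared by exact permutation with scipy 1.17.1, and counting variances were taken from the binomial, with n - 1 in the denominator. Named CpGs were every DMC and the 10 with the smallest p, and named windows the 5 with the smallest p. The members and lists were chosen with earlier results of these data known. The limit that a count of 0 allows was set at 3 reads of the total. The test among rats of the same group was added after the data were seen. The RNA counts were not used here, so the tissue label was not checked against marker genes, and promoters were not analysed here because no annotation of Rnor_6.0 was used. Alternatives covered the coverage minimum, dispersion, strands, window size, the replicate number as a block and each rat left out.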

Additional observations from a re-analysis of the deposited data

Results flagged for a closer look

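The change in mean methylation from NP to P18 in BN rats was set against that in CD rats. Over the 404069 CpGs with 10 reads in all 12 libraries, the BN change was 0.0687 points and the CD change -0.414 points, where all 3 CD-P18 rats lay below all 3 CD-NP rats. The difference of 0.483 points gave p = 0.025 in an exact permutation test of stage within each strain (400 splits, two-sided, n = 3 in each group). This test assumes no stage change in either strain, so a change in CD alone can give a small p. It cannot tell by itself whether the 2 changes differ. Median coverage at these CpGs fell from 28 to 21 reads in BN and rose from 19 to 28 in CD. The part of depth in the result was not tested. A base variant in an outbred rat can move its mean, and its part in the result was not tested.

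Of the 10 CpGs with the smallest p in BN, 8 were covered in all 12 libraries, and 2 of them had an adjusted p under 0.05 in the same permutation test. At position 22303139 of chromosome X the level in CD was 9.09%, 4% and 11.1% at NP and 5.13%, 3.85% and 2.78% at P18, so that the change in BN exceeded that in CD by 27.4 points. At position 35742398 of chromosome 1 the level in CD was 28.6%, 21.4% and 45.5% at NP and 22.7%, 20.6% and 20% at P18, and the changes differed by 42.0 points. For each the exact permutation p was 0.01 (n = 3 in each group), and 0.04 after Benjamini-Hochberg adjustment over the 8 CpGs. These CpGs were picked for their change in BN, so the tests are not independent of the choice. The adjustment covers the 8 CpGs only and not the 898904 from which they were picked, so passing it is no support for a difference. As above, the test assumes no stage change in either strain, so a change in BN alone can give such a p.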

How the results depend on the processing

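The count of DMCs was 1 with a minimum of 5 reads, on CpGs covered in all 12 libraries, with strands summed and with a minimum difference of 25 points. It was 2 with a minimum of 20 reads, 2 without the 1185 CpGs of highest coverage, 11 without overdispersion, 46 with the dispersion of each CpG on its own, which may then fall under 1, and 0 with limma on log-odds (50841 CpGs at an unadjusted p under 0.05). Leaving out 1 rat gave 1 to 3 DMCs. Beside CpGs named above, these were position 31049858 of chromosome 6 without BN-NP rat 2 and position 38823414 of chromosome 11 without BN-P18 rat 3, both among the 303 CpGs that varied between rats of a group. The count of windows was 0 in all alternatives run, leaving out each rat included (0 to 0), except 320 without overdispersion. The difference in mean level was 1.41 points weighted by reads, 6.05 points over each rat's own list, and -0.0338 to 0.0786 points when 1 rat was left out, and its sign turned without BN-P18 rat 1. With the replicate number as a block, there was 1 DMC, 0 windows and a mean difference of 0.0392 points. Same-numbered rats share only a number: their deviations correlated by -0.00479 to 9.88e-05. For named CpGs and windows, 178 of 196 alternative fits kept the side of the threshold, 3 lost a call, 15 gained one and 0 turned the direction. The direction could turn only with strands summed, with windows at 5 reads or with a rat left out. The other fits used the same pooled reads. These CpGs and windows were also picked for a small p, so their kept direction is no test. The alternatives for promoters and RNA were not run. At this depth and with adjustment over all CpGs, a call at a lone CpG needed a median change of 38.5 points. If 1 in 100 passed, the median was 20 points. Both values are for the direction that needed less.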
